A study of Mus musculus with 6 samples.

Results

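The 10 genes described here carry fibroblast growth factor (FGF) signalling in the developing lung: the ligands Fgf7 and Fgf10, the receptors Fgfr1 to Fgfr4, the feedback inhibitors Spry1 and Spry2, and the target transcription factors Etv4 and Etv5. They were taken by name, as every probe set whose only gene symbol in the platform annotation is one of the 10. The 10 genes were chosen with earlier results of these data known. A probe set is a group of short probes on the array whose signals are combined into 1 reading. This gave 24 probe sets of 45101 on the array. Of them 18 probe sets, from 8 genes, reached the brightness limit for testing, a mean signal of 497.8, which is the median of all probe sets. The other 6, among them all probe sets of Fgf10 and Etv4, are given as values. The dimmest tested probe set, Fgfr2 1443211_at, had a geometric mean signal of 755 and the brightest one below the limit, Fgfr1 1436551_at, had 470.6.

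The study measured RNA of whole mouse lung at E18.5, shortly before birth, on MOE430 V2 arrays. In the 3 Scap_ko samples Scap had been deleted in respiratory epithelial cells (Scap d/d), and 3 samples were controls. Both groups were of a mixed FVB/N and B6 background. The Cre driver and the alleles of the controls are not given in the sources used here. Scap escorts the SREBP transcription factors, which switch on sterol and fatty acid synthesis genes, from the endoplasmic reticulum to the Golgi.

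In the fetal lung, mesenchymal cells secrete Fgf10 and Fgf7, which bind the epithelial splice form of Fgfr2. The activated receptor signals through the Ras and MAP kinase cascade, raises the ETS factors Etv4 and Etv5 in the epithelium, and induces Sprouty proteins, which dampen the same cascade. This exchange drives branching of the airways and supports growth and differentiation of the distal epithelium.

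No member passed the test after adjustment. The clearest separation was in Fgfr2. All 3 of its probe sets read lower in every Scap_ko array than in any control array, at 64.8% to 77.6% of control (lowest limma adjusted p 0.741). The ligand Fgf10, which is dim on this array, and 1 dim probe set of Fgfr1 read higher in every Scap_ko array. The Sprouty genes and Etv5, which report on the activity of the pathway, showed smaller differences with overlapping groups. Spry1 averaged higher in Scap_ko lungs, and Spry2 and Etv5 averaged lower. Etv4, another such gene, was too dim for a difference to be detected.

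Promoter windows are shown for Fgfr2 and Fgf10, a ligand and its receptor, each with groups that did not overlap. They are the 250 bases before the start of each gene as given by RefSeq for GRCm38.p6, printed 5′ to 3′ along the gene, with the ETS core GGAAG, or its reverse complement CTTCC, in capitals. The Fgfr2 window lies at chr7:130266809-130267058 on the minus strand and the Fgf10 window at chr13:118714449-118714698 on the plus strand.
Fgfr2: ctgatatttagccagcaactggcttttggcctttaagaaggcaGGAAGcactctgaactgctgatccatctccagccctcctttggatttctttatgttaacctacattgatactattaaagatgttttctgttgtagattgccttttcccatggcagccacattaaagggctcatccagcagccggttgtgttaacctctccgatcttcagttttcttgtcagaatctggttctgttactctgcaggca
Fgf10: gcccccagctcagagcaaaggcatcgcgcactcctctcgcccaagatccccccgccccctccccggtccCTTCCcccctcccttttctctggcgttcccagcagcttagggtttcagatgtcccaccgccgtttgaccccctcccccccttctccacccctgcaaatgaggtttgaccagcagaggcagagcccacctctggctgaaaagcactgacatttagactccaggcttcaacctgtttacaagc

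The Fgfr2 window had a GC content of 44.0% and 2 CG dinucleotides, and the Fgf10 window 61.2% and 8, against a median GC content of 52.4% over all promoter windows. Each held 1 ETS core, which starts 207 bases before the Fgfr2 start and 181 bases before the Fgf10 start. The same 5 letters, on either strand, occur in 64.1% of 32851 windows of this length, so a match is common. A sterol regulatory element, searched as TCACNCCAC on both strands, occurs in 346 windows (1.1%). It occurs in 0 of the 10 member windows, which cover 8 of the members. The set of windows used here had none for Fgfr1 and Etv4. These are descriptions of the letters in these windows and say nothing of binding.

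Signals are linear array units. The labels do not say whether the 3 replicates of a group came from different animals, so the p-values rest on spread that may be technical, and the number of arrays limits every comparison. Array medians lay between 498.5 and 513 in Scap_ko lungs and between 490.9 and 530.5 in control lungs. The deleted transcript, read by Scap 1433520_at, had signals of 1847, 3286 and 2702 in Scap_ko lungs, against 7264, 4195 and 3080 in control lungs. Whether it reads the deleted exons is not known here. These groups overlap (exact two-sided permutation p = 0.2, where 0.1 is the smallest that 3 against 3 arrays allow). A second probe set, Scap 1442885_at, lay below the brightness limit. It read 221.1, 325.2 and 169.5 in Scap_ko lungs, against 587.1, 648.4 and 74.0 in control lungs, also with overlap. On it control replicate 3 was the lowest array. Within replicate number 3 the log2 differences were -0.19 on the first probe set and 1.2 on the second. Lung identity was plain in both groups: the epithelial regulator Nkx2-1 read 1512 to 1886 and 1386 to 1960, and the general epithelial markers summed to 77206 to 81323 and 75118 to 78381, in Scap_ko and control lungs. Arrays numbered 3 stood apart on the main axis of variation in both groups. Liver transcripts were high in 2 controls: Alb read 256.8, 132.8 and 260.5 in Scap_ko lungs, against 1800, 1048 and 219.1 in control lungs, and Afp read 64.0, 45.1 and 40.1, against 693.2, 6700 and 22.2. Whether this bears on the FGF genes was not tested, and values against control replicate 3 alone are given for Fgfr2.

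Of the 18 tested probe sets, 0 passed an adjusted p of 0.05 in limma, as did 0 of all 22519 tested, a background of 0%. At an unadjusted limma p of 0.05, 3 were lower in Scap_ko lungs, against 2.64% of all tested probe sets, and 0 were higher, against 2.6% (5.24% in either direction). With the replicate block the count of members stayed at 3, while that of all tested probe sets was 1923 of 22519, against 1180 without it. The 3 are the Fgfr2 probe sets, which read 1 gene and are not independent of each other. The groups did not overlap in the same 3 probe sets, lower in Scap_ko lungs, where the background is 5.23%, and in 0 the other way, where it is 5.3% (10.5% in either direction). The median log2 difference (Scap_ko minus control) over the 18 was -0.09, with 13 negative, and over all tested probe sets it was 0.01, with 47.3% negative. The members were chosen with earlier results of these data known, so these counts beside the background describe the list and do not test it.

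**Figure D1:**
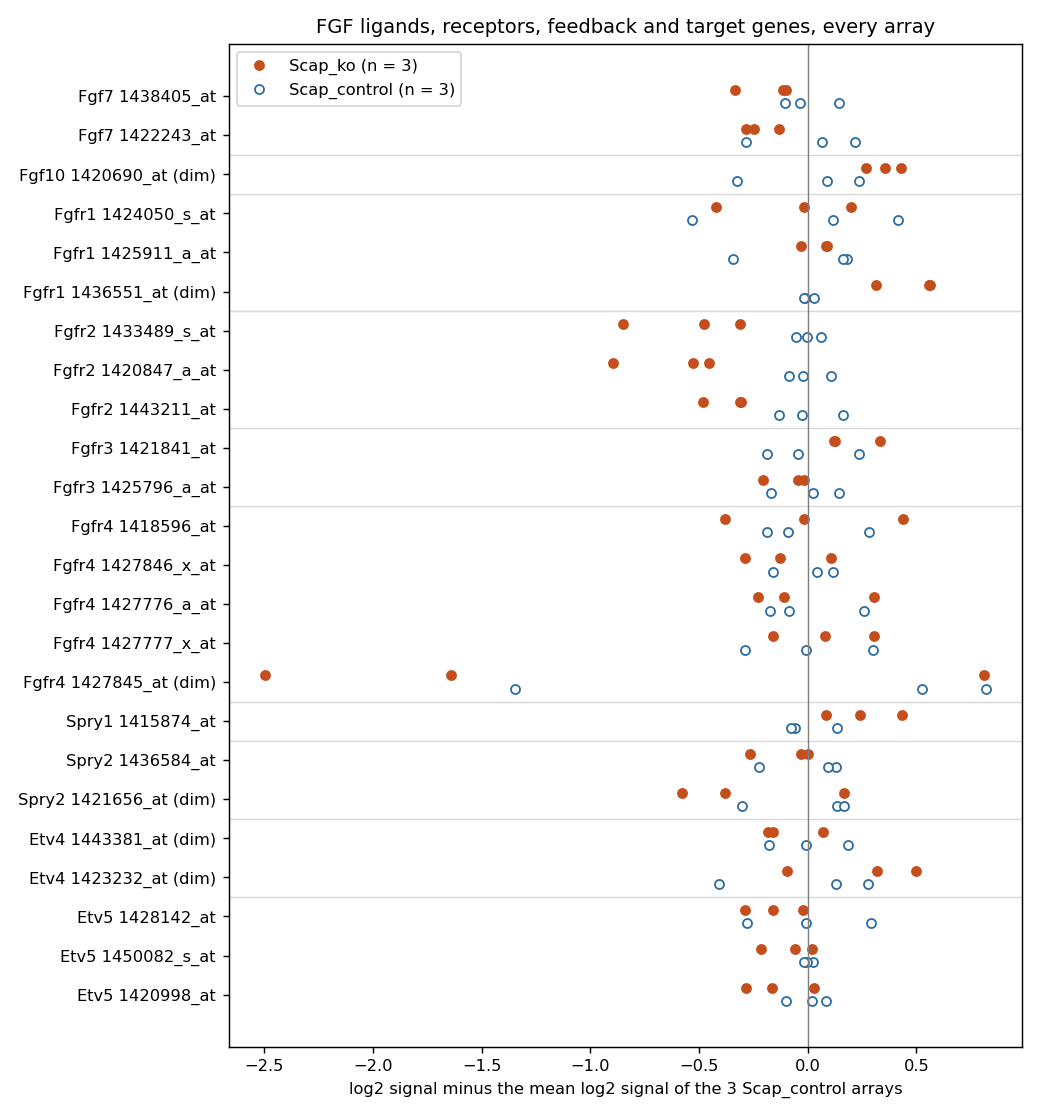
Each point is 1 array: log2 signal of a member's probe set minus the mean of the 3 control arrays, with Scap_ko arrays (filled) above control arrays (open) in each line. The 3 Fgfr2 probe sets have all Scap_ko points left of all control points, and Fgf10 and Fgfr1 1436551_at, both below the brightness limit (dim), have them to the right.

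Among the ligands, Fgf10, the mesenchymal growth factor needed for lung buds to form, read 382.8, 428.9 and 406.6 in Scap_ko lungs, against 253.7, 375.1 and 338.8 in control lungs. Every Scap_ko array was above every control array, by a narrow margin over control replicate 2. Its mean of 406 ± 23.1 in Scap_ko lungs was 127.5% of control on the log2 scale, where the control mean was 323 ± 62.3 (SD, n = 3 each; exact two-sided permutation p = 0.1). Among the 22518 probe sets below the brightness limit, 3.39% had groups that did not overlap and higher readings in Scap_ko lungs, and 2 of the 6 dim member probe sets did; the other way it was 7.47%, and 0 of the 6. No detection calls were used, so a background level for it is unknown. In the fit over all 45037 probe sets without the brightness limit its log2 difference was 0.35 (95% interval -0.11 to 0.81, limma adjusted p = 0.974).

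Fgf7, the keratinocyte growth factor, which shares the epithelial form of Fgfr2 with Fgf10, read lower on average on both of its probe sets, with overlap. Fgf7 1438405_at had 1937, 1664 and 1957 in Scap_ko lungs, against 2044, 2312 and 1948 in control lungs. Fgf7 1422243_at had 1550.3, 1680 and 1513 in Scap_ko lungs, against 1515, 1929 and 2141 in control lungs. The first pair of groups overlap only through Scap_ko replicate 3, and the second only through control replicate 1. Their differences were -0.18 (SE 0.12, 88.2% of control) and -0.22 (SE 0.15, 85.7%), each with a limma adjusted p of 0.954. Single arrays moved both: the first was -0.11 without Scap_ko replicate 2 or without control replicate 2, and the second was -0.36 without control replicate 1 and -0.11 without control replicate 3.

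The receptor Fgfr2, a tyrosine kinase whose epithelial form receives both ligands, was read by 3 probe sets. Fgfr2 1433489_s_at had signals of 10671, 11994 and 8254 in Scap_ko lungs, against 15504, 14330.4 and 14824 in control lungs. Fgfr2 1420847_a_at had 7402, 7046 and 5461 in Scap_ko lungs, against 10940.2, 10005 and 9565 in control lungs. Fgfr2 1443211_at had 690.9, 693.2 and 614.5 in Scap_ko lungs, against 840.7, 958.5 and 781.3 in control lungs. The groups were apart on every probe set, and Scap_ko replicate 3 was the lowest array on all of them.

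The mean of Fgfr2 1433489_s_at was 10306 ± 1896 in Scap_ko lungs and 14886 ± 589 in control lungs (SD, n = 3 each). That is a log2 difference of -0.55 (SE 0.15), 68.5% of control with a 95% interval of 53.5% to 87.5%, and a limma adjusted p of 0.864. For Fgfr2 1420847_a_at the means were 6636 ± 1033 and 10170 ± 702, a difference of -0.63 (SE 0.14), 64.8% of control with an interval of 51.4% to 81.7%, and an adjusted p of 0.741. Of all tested probe sets, 1.22% lay at least as far from 0. The dimmest, Fgfr2 1443211_at, averaged 666 ± 44.8 in Scap_ko lungs and 860 ± 90.2 in control lungs, a difference of -0.37 (SE 0.12), 77.6% of control, and an adjusted p of 0.911. The unadjusted limma p were 0.00808, 0.00292 and 0.0171 in this order. An exact permutation test gave p = 0.1 for each, the smallest that 3 against 3 arrays allow.

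The difference held its direction under the alternatives tried, at -0.66 to -0.40 for Fgfr2 1433489_s_at, -0.71 to -0.49 for Fgfr2 1420847_a_at and -0.43 to -0.29 for Fgfr2 1443211_at. Without Scap_ko replicate 3 these were -0.40, -0.49 and -0.31. The unadjusted limma p of Fgfr2 1443211_at passed 0.05 by a little without Scap_ko replicate 3 (0.057), without control replicate 2 (0.0502) and by eBayes with trend and robust (0.0529). In replicate number 3 the control array had low Alb and Afp. There the Scap_ko lung differed from the control lung by -0.84, -0.81 and -0.35 on the log2 scale. That Scap_ko array was the lowest on all 3 probe sets. Scap_ko replicates 1 and 2 also read below control replicate 3, by less. Fgfr2 1433489_s_at had 10671 and 11994 against 14824, 1420847_a_at 7402 and 7046 against 9565, and 1443211_at 690.9 and 693.2 against 781.3. In whole lung, fewer cells of a type and less RNA per cell cannot be told apart. The sources used here do not give the splice form that each Fgfr2 probe set reads.

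**Figure D2:**
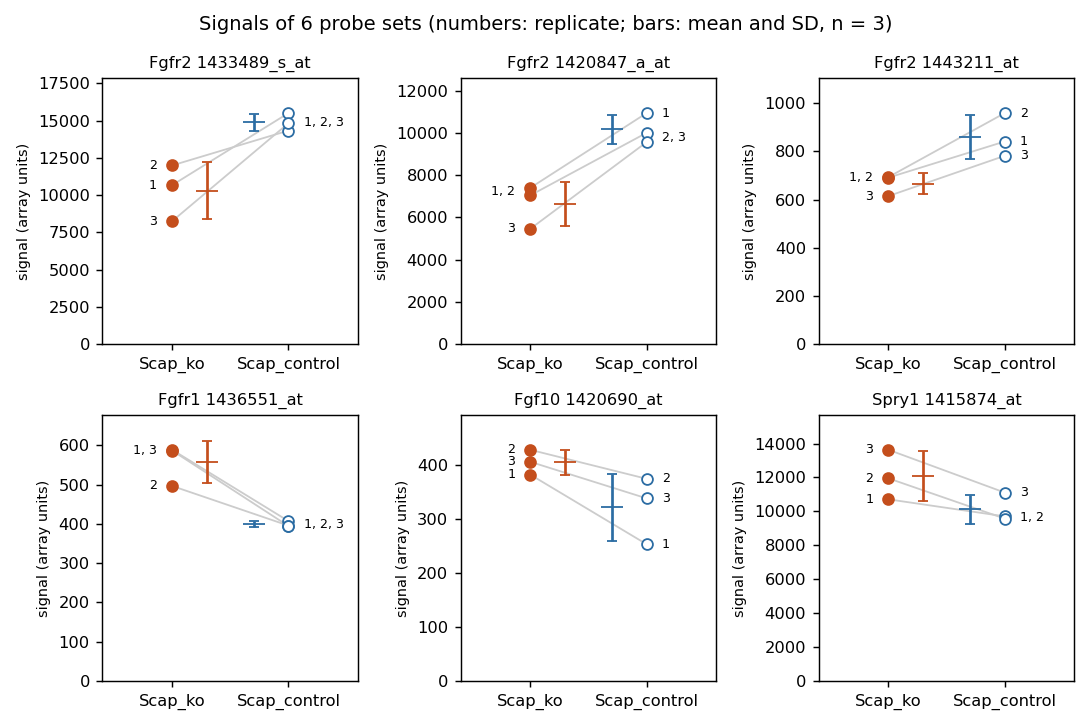
Linear signal of 6 probe sets in the 3 Scap_ko arrays (left in each panel) and the 3 control arrays (right), numbered by replicate, with grey lines joining equal numbers and bars for mean and SD. The Fgfr2 panels show 3 of 3 lines lower in Scap_ko lungs, and those of Fgfr1 1436551_at, Fgf10 and Spry1 show 3 of 3 higher, with overlap of the groups for Spry1.

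Levels of cell type markers were set beside Fgfr2. On each array, the log2 signal of Fgfr2 1433489_s_at minus the mean log2 signal of 8 general epithelial markers averaged 0.58 ± 0.34 in Scap_ko lungs and 1.14 ± 0.08 in control lungs (SD, n = 3 each). The groups did not overlap (exact two-sided permutation p = 0.1). Against 5 alveolar type I markers the difference was -0.50, and against 9 mesenchymal markers -0.49, again with no overlap. Against 5 alveolar type II markers (Sftpc, Sftpb, Sftpa1, Abca3 and Slc34a2) it was -0.09, with overlap (exact p = 1). These 5 summed to 212606 to 247716 in Scap_ko lungs and 238803 to 294905 in control lungs, with 4 of 5 lower on average, a median at 76.5% of control and 0 at a signal of 0. Fgfr2 1420847_a_at and Fgfr2 1443211_at gave -0.17 and 0.09 against the same 5 markers, also with overlap. The type II markers did not move together: Sftpa1 stood at 45.5% of control, Abca3 at 63.9%, Sftpb at 76.5%, Slc34a2 at 91.7% and Sftpc at 100.6%. Each marker is read here by its brightest probe set. For Abca3 the 3 tested probe sets ran from -0.65 to 0.26 on the log2 scale, and the one used was the lowest. For Sftpa1 the 2 tested probe sets were at -1.43 and -1.14. Among the general epithelial markers Epcam, at 77.3%, and Foxa2, at 91.4%, were lower in every Scap_ko array than in any control array, while 5 of the 8 averaged higher. Of all tested probe sets, 5.23% had groups apart in this direction. The limma adjusted p were 0.928 for Epcam and 0.954 for Foxa2. Medians stood at 88.6% of control for 4 airway markers and 86.1% for 4 endothelial markers. They were 104.8% for the general epithelial, 98.9% for the type I and 97.5% for the mesenchymal markers. For smooth muscle the median was 111.1%, for leukocytes 106.2%, for mesothelium 91.1% and for red cells 80.5%. Markers of tissues beside the lung, Alb and Afp among them, had a median of 65.9%. The part of these cell type markers in the Fgfr2 result was not tested.

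Fgfr1, the receptor mainly of mesenchymal cells, had probe sets that disagreed. Fgfr1 1424050_s_at read 3070, 2320.2 and 3559 in Scap_ko lungs, against 2146, 4140 and 3368 in control lungs, and Fgfr1 1425911_a_at read 2369, 2181 and 2375, against 2530, 1762 and 2497. Both overlapped widely, with log2 differences of -0.08 (SE 0.26, adjusted p = 0.989) and 0.05 (SE 0.16, adjusted p = 0.989), and each turned direction when single arrays were left out. The dim probe set Fgfr1 1436551_at read 588.4, 496.3 and 586.5 in Scap_ko lungs, against 407.0, 395.4 and 394.3 in control lungs. Here all Scap_ko arrays lay above all controls, at 139.2% of control. In the fit without the brightness limit its difference was 0.48 (SE 0.12, 95% interval 0.16 to 0.79, limma adjusted p = 0.8). Since the other 2 Fgfr1 probe sets lay near 0, no single direction can be given for the gene.

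Fgfr3, a receptor of the distal lung that acts together with Fgfr4 in formation of the alveoli, read 15515, 15535 and 17934 by Fgfr3 1421841_at in Scap_ko lungs, against 12507, 13802.5 and 16756 in control lungs. Each Scap_ko array was above the control of its own number, and the groups overlapped through control replicate 3. The difference was 0.19 (SE 0.14, 114.3% of control, limma adjusted p = 0.954). Its other probe set, Fgfr3 1425796_a_at, averaged 2818 ± 193 in Scap_ko lungs and 3005 ± 325 in control lungs, a difference of -0.09 (SE 0.12), so the 2 probe sets had opposite signs. Leaving out 1 array at a time gave 0.10 to 0.31 for the first and -0.17 to -0.02 for the second.

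Fgfr4 was read by 5 probe sets. The brightest, Fgfr4 1418596_at, had 4247, 5466.5 and 7495 in Scap_ko lungs, against 5186.5, 4853 and 6719 in control lungs. Arrays numbered 3 were the highest in both groups, and the difference was 0.01 (SE 0.23), with a 95% interval of 69.9% to 145.7% of control. The tested probe sets 1427846_x_at, 1427776_a_at and 1427777_x_at of Fgfr4 differed by -0.10, -0.01 and 0.07, all with overlap. The suffix x marks probes that may bind other transcripts. Fgfr4 1427845_at read 13.2 to 130.8 in Scap_ko lungs and 29.3 to 131.8 in control lungs, too dim for its log2 difference of -1.11 to be read (SE 1.04 in the fit without the brightness limit).

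**Figure D3:**
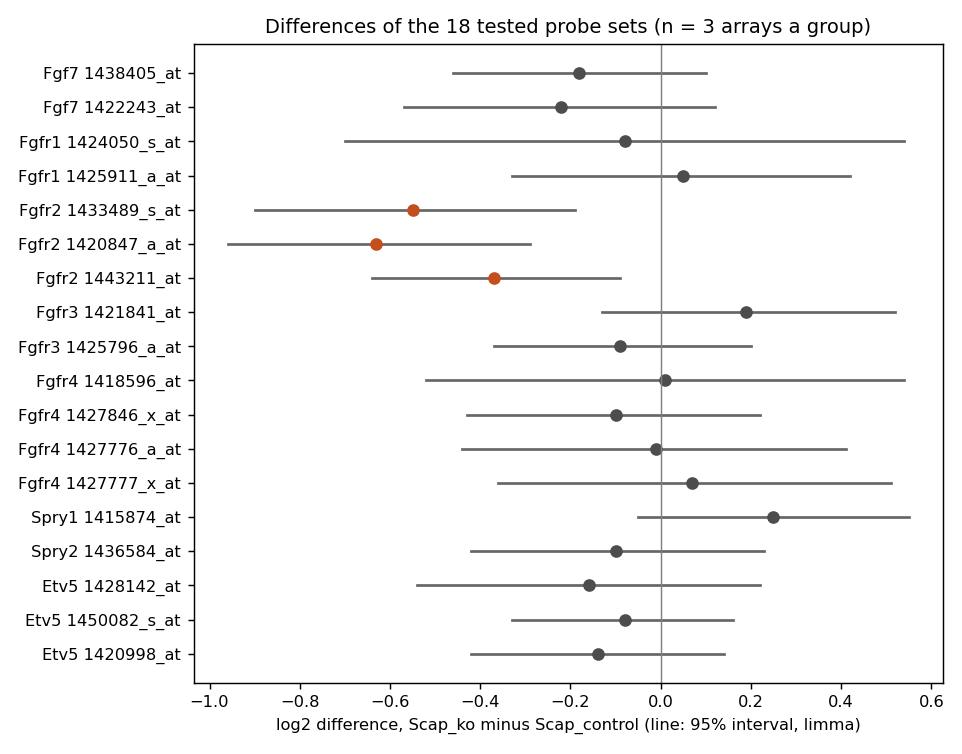
Log2 difference, Scap_ko minus control, of the 18 tested probe sets (points) with 95% intervals from limma (lines). The intervals of the 3 Fgfr2 probe sets, coloured for an unadjusted p of at most 0.05, lie below 0, and those of the other 15, with differences of -0.22 to 0.25, cross 0.

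The feedback inhibitor Spry1, a Sprouty protein that restrains the Ras and MAP kinase cascade, read 10708, 11945 and 13629 in Scap_ko lungs, against 9704, 9571 and 11107 in control lungs. Scap_ko was higher within all 3 replicate numbers, and the groups overlapped through control replicate 3. Its mean was 12094 ± 1466 in Scap_ko lungs and 10128 ± 851 in control lungs (SD, n = 3 each), a difference of 0.25 (SE 0.13), 119.1% of control with a 95% interval of 96.7% to 146.7% (limma adjusted p = 0.94), and 0.16 without Scap_ko replicate 3. Spry2, its relative with the same role, read 3517, 2984 and 3596 by Spry2 1436584_at in Scap_ko lungs, against 3076, 3926 and 3837 in control lungs, a difference of -0.10 (SE 0.14, adjusted p = 0.972). Its dim probe set, Spry2 1421656_at, read 147.3 to 247.2 in Scap_ko lungs and 178.5 to 246.8 in control lungs. Leaving out 1 array at a time moved Spry2 1436584_at between -0.21 and -0.01. Neither Spry2 probe set separated the groups.

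Etv5, the ETS factor used as a readout of FGF receptor activity in distal epithelium, had small negative differences on 3 of 3 probe sets. Etv5 1428142_at read 12873, 11704 and 10703 in Scap_ko lungs, against 13015, 15982 and 10768.5 in control lungs. Etv5 1450082_s_at read 4655, 4422.5 and 3964 in Scap_ko lungs, against 4670.4, 4581 and 4547 in control lungs. Etv5 1420998_at read 3204, 3666 and 2953 in Scap_ko lungs, against 3800.1, 3634 and 3350.5 in control lungs. All overlapped, at 89.6%, 94.3% and 90.8% of control (log2 differences of -0.16, -0.08 and -0.14, limma adjusted p of 0.964, 0.971 and 0.956). Single arrays carried much of this. Etv5 1428142_at was -0.01 without control replicate 2 and -0.30 without control replicate 3, and without Scap_ko replicate 3 the 3 probe sets were at -0.09, -0.02 and -0.07. Their 95% intervals reach down to 68.8%, 79.6% and 74.8% of control, so these arrays leave a fall of that size within the interval. Etv4 was dim on both probe sets: Etv4 1443381_at read 190.7 to 226.7 in Scap_ko lungs and 191.2 to 245.9 in control lungs, and Etv4 1423232_at read 33.8 to 51.1 and 27.2 to 43.8. No difference could be detected for it at this brightness.

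The rest of the pathway was described from a list of 59 other genes, also chosen with earlier results of these data known. Of these, 51 had a probe set of their own and the others were not analysed here. Of the 51, 43 were tested, each by its brightest tested probe set. Of the 43, 0 passed the adjusted threshold in limma. At an unadjusted p of 0.05, 2 were higher and 1 was lower, where all tested probe sets gave 2.6% and 2.64%. The median log2 difference was 0.05, beside 0.01 over all tested probe sets. Of the 43, 28 were positive and 15 negative, where 47.3% of all tested probe sets were negative. The groups did not overlap in 2 that were higher and 2 that were lower, where the background is 5.3% and 5.23%. By role, the medians were 0.01 for 14 ligand and ligand-handling genes, 0.04 for 10 adaptors and kinases and 0.06 for 19 feedback inhibitors and targets.

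The lower one was Fgfbp1, a secreted carrier that frees FGF ligands from the matrix. It read 2589, 2605 and 2227 in Scap_ko lungs, against 4192, 3215 and 3549 in control lungs, with the groups apart. Its difference was -0.56 (SE 0.13), 68.0% of control (limma adjusted p = 0.753). Of the 5 genes with the smallest p, the other 4 were higher. Braf, a kinase of the cascade, stood at 122.1% of control (difference 0.29, SE 0.12, adjusted p = 0.932), with 9 of 9 tested probe sets between 0.10 and 0.43 on the log2 scale. Bmp4, a distal epithelial signal that FGF10 raises, stood at 132.2% (difference 0.40, SE 0.17, adjusted p = 0.939), and Fos and Egr1, early genes induced by MAP kinase signalling, at 118.6% and 132.5% (each adjusted p = 0.94). Egr1 rested on the arrays numbered 3, at 0.24 without either of them and 0.08 without both, against 0.41 with all arrays. Braf separated the groups, and Bmp4, Fos and Egr1 did not. Of the 19 feedback inhibitors and targets, 13 were positive and 6 negative. Il17rd stood at 85.5% of control, Dusp7 at 90.4%, Spry4 at 92.0% and Dusp6 at 96.4% (limma adjusted p 0.947 to 0.982). Of these, Dusp7 had its groups apart, and the tested probe sets of Spry4 ran from -0.20 to 0.08 on the log2 scale.

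The Sprouty-related inhibitors Spred1 and Spred2 were picked out after their values were seen. Spred2 1441415_at read 1146, 1096 and 1338 in Scap_ko lungs, against 756.0, 749.8 and 664.5 in control lungs, a difference of 0.72 (SE 0.12, limma adjusted p = 0.6). The brighter 1434403_at and 1436892_at of Spred2 differed by 0.06 and -0.11, so the gene has no common direction. Spred1 1460116_s_at stood at 144.2% of control (difference 0.53, SE 0.13, adjusted p = 0.791), and 1452911_at of Spred1 at 126.6%, both with the groups apart. The other 4 tested Spred1 probe sets, 1423160_at, 1423162_s_at, 1423161_s_at and 1428777_at, overlapped, with differences of 0.23, 0.09, 0.00 and -0.03.

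**Figure D4:**
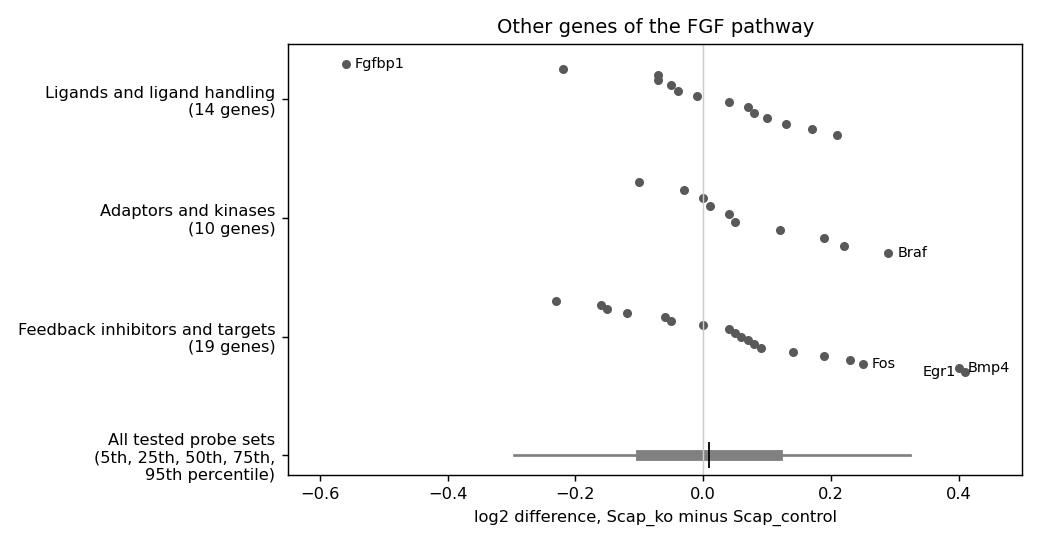
Log2 difference, Scap_ko minus control, of 43 other FGF pathway genes by role, 1 point a gene, over the 5th, 25th, 50th, 75th and 95th percentiles of all tested probe sets. Fgfbp1, at -0.56, stands apart on the left, and Bmp4 (0.40) and Egr1 (0.41) lie farthest right.

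Genes with the most similar pattern were sought for Fgfr2 and Etv5 by their brightest probe sets, as the smallest root mean square distance between log2 values centred over the 6 arrays, among 10685 other tested genes. Nearest to Fgfr2 were Fads1, a desaturase of polyunsaturated fatty acids, at a distance of 0.052, Letmd1 at 0.093 and Srebf2, the gene of the SREBP2 transcription factor that Scap escorts, at 0.101, while Fgfr2 itself varied by 0.32. Fads1 read 3433, 3815 and 2866 in Scap_ko lungs, against 5210 (control replicate 1), 4734 and 4624 in control lungs, at 69.0% of control. Srebf2 read 2444, 2588 and 2234.5 in Scap_ko lungs, against 3736, 3487 and 3415 in control lungs, at 68.2% of control. They were chosen for their likeness to Fgfr2 on these arrays, so their lower readings in Scap_ko lungs follow from the choice. Nearest to Etv5 were Zfp74 (0.039), Cep68 (0.047) and Yes1 (0.048), a kinase of the Src family, with Etv5 varying by 0.20. Their groups overlapped, as did those of Etv5, with control replicate 2 the highest array of all 4 genes. With 6 arrays and 10685 genes some close patterns will be found for any gene. Fgf10 was below the brightness limit and was not matched.

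**Figure D5:**
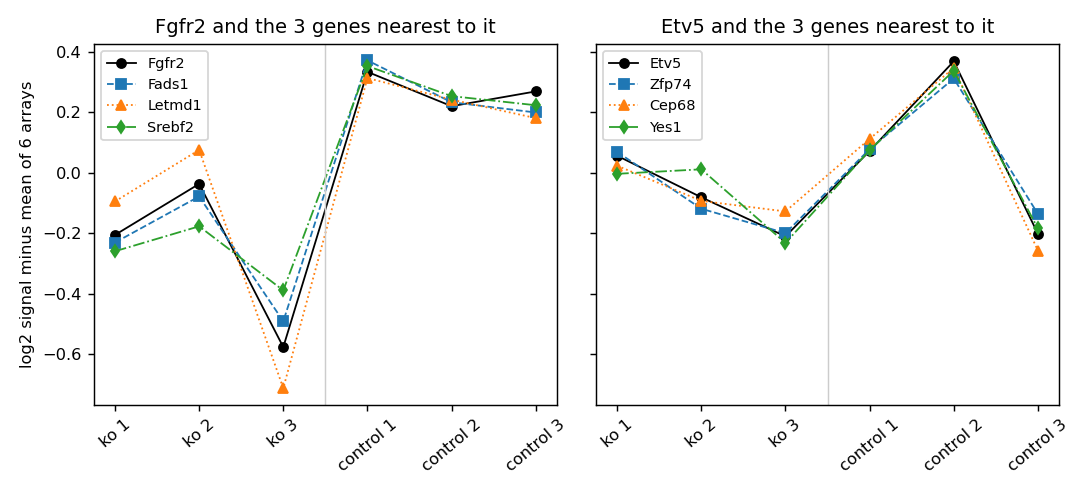
Log2 signal of Fgfr2 and Etv5 (black) and of the 3 genes nearest to each, centred on the mean of 6 arrays, with Scap_ko arrays left and control arrays right of the line. Fgfr2, Fads1, Letmd1 and Srebf2 are lowest in Scap_ko replicate 3, and Etv5 and its 3 neighbours are highest in control replicate 2.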

How the data were processed

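Per the labels, 6 samples of whole lung total RNA were measured, on MOE430 V2 arrays according to the design text. The authors deposited 1 table of linear intensity (signal) values for 45101 probe sets. RMA is the tool named in the submitters' processing notes, but the values are linear, reach down to 0.2 and share a mean of 1500 after trimming 2% at either end, so scaling to a common mean was seen. The sources used here do not name the software or background correction. Medians by column were 513, 503.2 and 498.5 in Scap_ko replicates 1 to 3 and 509.2, 530.5 and 490.9 in control replicates 1 to 3. Genes were not centred, and the signals are of 1 channel, not ratios.

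The log2 signal was taken with no pseudocount, 64 control probe sets were left out, and of the other 45037, 34945 had 1 gene symbol, 932 several and 9160 none. The 22519 with a mean at or above the median were tested with lmFit and eBayes of limma 3.58.1 (R 4.3.3), with Benjamini-Hochberg adjustment over all of them. This probe set level fit was also run with 1 probe set per gene. The step was run on simulated data with noise drawn independently for each array. The check was that the fit returned the mean change put in, not that changes of a given size pass the threshold. Genes were named by rule: all members, Scap, the 5 pathway genes of smallest p, the 3 nearest patterns and fixed markers. Spred1, Spred2, Il17rd, Dusp7, Spry4 and Dusp6 fall outside it and were named after their values were seen. Members and lists were chosen with earlier results of these data known.

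The titles number both groups 1 to 3. Deviations from group means correlated at 0.20, 0.28 and 0.41 between arrays of the same number, and at -0.29 to 0.04 between arrays of different numbers. The numbers may therefore pair the arrays, but this rests on the titles and the data alone. Printed errors, intervals and p-values come from the fit without pairs unless the replicate block is named. The exact permutation tests also ignore the replicate numbers, and their smallest p of 0.1 holds only for arrays without pairs. The alternatives tried were quantile normalization, no or a higher brightness limit, a pseudocount of 50, 1 probe set per gene, eBayes with trend and robust, the replicate block, and leaving out arrays.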

Additional observations from a re-analysis of the deposited data

How the results depend on the processing

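No member probe set and no other pathway gene passed the adjusted threshold under any of the 14 alternatives (lowest adjusted p 0.443, for Fgfr2 1420847_a_at with the replicate block). Of all probe sets, 0 passed in the limma fit reported (1180 at an unadjusted p of 0.05), 1 with 1 probe set per gene, 2 by eBayes with trend and robust, and 0 to 1 when 1 array was left out (1 without Scap_ko replicate 2). The count of 3 member probe sets at an unadjusted p of 0.05 became 1 with 1 probe set per gene, where Fgfr2 has 1 probe set, and 2 to 4 when 1 array was left out. The count of 3 other pathway genes became 1 without a filter on dim probe sets and 1 without both arrays numbered 3 (2 to 3 leaving out 1 array). With the replicate block the unadjusted limma p of Fgfr2 1433489_s_at, 1420847_a_at and 1443211_at were 0.00844, 0.00156 and 0.0126, with 1923 of all probe sets at an unadjusted p of 0.05, and the block changed no call. Of the 23 probe sets followed here (the tested members and the 5 pathway genes of smallest p), 18 kept their direction throughout. The other 5 lay near 0 and reversed in 13 of the comparisons: leaving out 1 array gave Fgfr1 1424050_s_at -0.35 to 0.13, Fgfr1 1425911_a_at -0.12 to 0.14, Fgfr4 1418596_at -0.20 to 0.21, Fgfr4 1427776_a_at -0.17 to 0.12 and Fgfr4 1427777_x_at -0.07 to 0.22, and without both arrays numbered 3 Fgfr4 1418596_at was -0.06 and Fgfr4 1427777_x_at -0.19. The cause was not tested. Scap 1433520_at lay between -1.12 and -0.50 when 1 array was left out. Without detection calls, the dim readings of Fgf10 and Etv4 are limited by an unknown background.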
